A study of Mus musculus with 12 samples.

Results

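The 9 genes described here encode enzymes that build triglyceride, the storage and transport form of fatty acids: Gpam, Agpat6, Agpat2, Lpin1, Lpin2, Lpin3, Dgat1, Dgat2 and Mogat1. They were chosen by name, as textbook enzymes of the pathway, with earlier results of these data known. All 9 were found by symbol among the 21705 genes of the table. Hepatic mRNA had been sequenced from 6 saline-treated mice and 6 mice given LNA29, which is a pair of locked nucleic acid inhibitors directed against miR-29a and miR-29b/c. All mice were C57BL/6J females of 10 to 12 weeks, with no transgene or deletion named. They were dosed through the tail vein, with 20 mg/kg of each inhibitor in the LNA29 group, and whole liver was taken on day 7 after an 18 h fast. The controls received saline alone, so that an effect of any injected oligonucleotide and an effect of losing miR-29 cannot be told apart in these libraries.

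Triglyceride is made in the liver by adding fatty acids one after another to glycerol-3-phosphate. Glycerol-3-phosphate acyltransferases attach the first fatty acid, acylglycerolphosphate acyltransferases attach the next and give phosphatidic acid, and lipins remove the phosphate to give diacylglycerol. Diacylglycerol acyltransferases then add the last fatty acid. Phosphatidic acid and diacylglycerol are also the branch points to phospholipid, and monoacylglycerol acyltransferases reach diacylglycerol by a route that bypasses the phosphate steps. In the liver the product is stored in droplets or exported in very low density lipoprotein. The comparison asked whether the mRNAs of these enzymes differed between livers with and without the inhibitors.

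The 3 miRNAs that the inhibitors were directed against carry the same seed, bases 2 to 8, which directs a miRNA to its targets. The mature sequences are those of RefSeq on GRCm38.p6, with the seed in capitals, and are shown because the members were searched for its complement.
miR-29a-3p: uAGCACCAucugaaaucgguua
miR-29b-3p: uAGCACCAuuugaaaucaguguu
miR-29c-3p: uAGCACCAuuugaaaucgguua

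The complement, TGGTGCT, was looked for on the transcript strand of the longest 3′ UTR of each member in GENCODE M21 (GRCm38), where Agpat6 is named Gpat4. It occurred in 2 of the 9 members, Gpam and Lpin1, with 1 match each. Among the 12125 tested genes with a 3′ UTR, 15.5% held it. The match in Gpam was at chr19:55069118-55069124 on the minus strand, in exon 22 of 22, and the match in Lpin1 was at chr12:16535687-16535693 on the minus strand, in exon 21 of 21. Each is shown with 8 bases on either side, in the direction of the transcript, with the match in capitals.
Gpam: taattaacTGGTGCTttgaaacc
Lpin1: tggatccgTGGTGCTggctagac
The shorter complement of bases 2 to 7, GGTGCT, which is contained in the longer one, was found in Gpam, Agpat6 and Lpin1, and in 33.4% of the tested genes. A match is a description of the letters in the window and does not show that a transcript was bound.

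Values are those deposited, scaled within each liver to an upper quartile of 1000 among genes that had reads. Because 1 read was worth 9.80 to 24.4 of these units, values could be turned back into reads, with those between whole reads rounded. On this count the libraries held 7696073 to 19062438 reads on genes. A gene without reads was listed at 1. The 8 hepatocyte markers examined were present, and albumin took 35.7% of the reads in saline replicate 49 and 43.6% to 46.9% in the other livers. Saline replicate 49 also had the strongest tendency of any library toward high values of long transcripts, which is given beside Gpam below. In whole liver, fewer cells of a type and less RNA per cell cannot be told apart.

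No enzyme of the pathway passed the test between the groups. With limma on log2(value + 1), 0 of the 9 members had a Benjamini-Hochberg adjusted p under 0.05 over the 12486 genes tested, and their adjusted p ranged from 0.516 to 0.994, against 0.16% of all tested genes that passed. At an unadjusted limma p under 0.05 there were 2 members, Agpat2 with lower values and Lpin2 with higher values in LNA29 livers, where 7.91% of all tested genes were. The two-sided exact permutation test over the 924 divisions of the 12 livers gave 0 members a p under 0.05, against 8.5% of tested genes. In 0 of the 9 members were the groups free of overlap, against 0.985% of tested genes. With edgeR and DESeq2 on recovered reads the count at an adjusted p under 0.05 was also 0. Of the 8 members other than Mogat1, 3 had higher and 5 had lower means in LNA29 livers. Lpin3, among the lower ones, had only 2 to 11 reads in a liver. The median log2 fold change of the 8 was -0.11, beside -0.093 over all tested genes, of which 61.4% were lower.

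**Figure D1:**
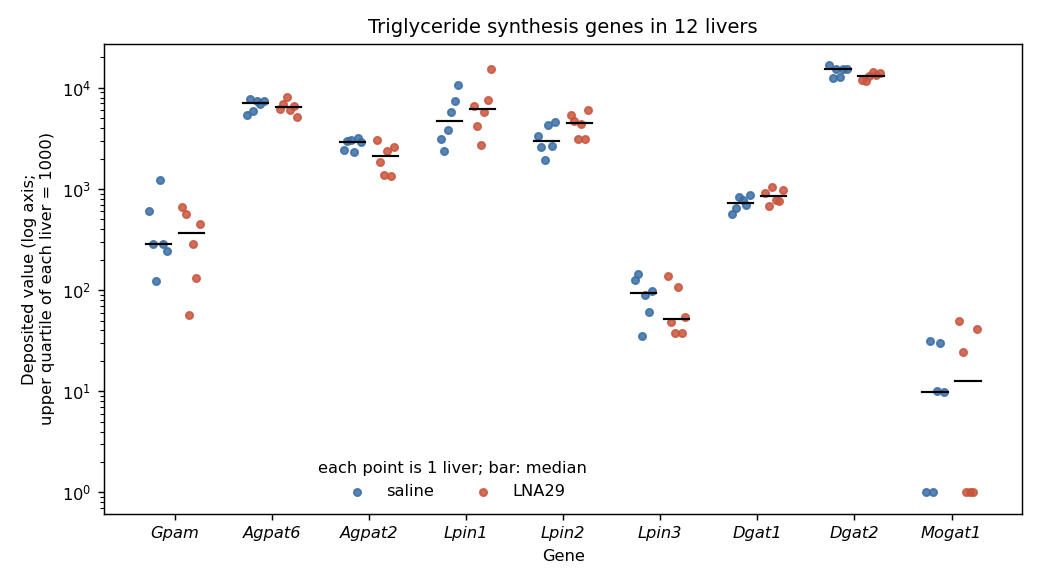
Deposited value (log axis) of each of the 9 genes in 6 saline (blue) and 6 LNA29 (red) livers; points are livers and bars are medians. Dgat2 lies between 11732 and 16672 in every liver, Lpin1 and Gpam spread widely within both groups, and Mogat1 is listed at 1 in livers without a read.

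**Figure D2:**
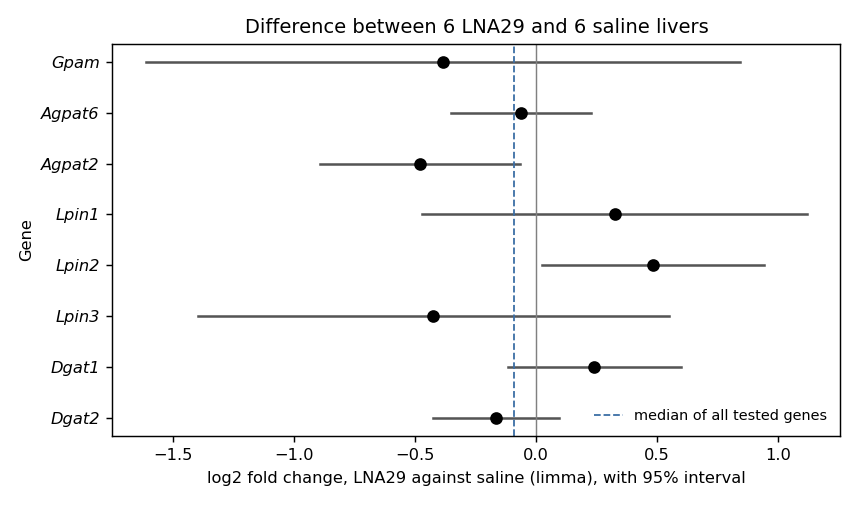
The log2 fold change of LNA29 against saline livers (limma) for the 8 genes other than Mogat1, with 95% intervals. The dashed line is the median of all tested genes, and Lpin3 had only 2 to 11 reads in a liver. The intervals of Agpat2 (-0.89 to -0.07) and Lpin2 (0.02 to 0.94) do not reach 0 before adjustment, and those of Gpam and Lpin3 are the widest.

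Per length of transcript, an enzyme of the final step was the most abundant of the members. In saline livers Dgat2 had a mean of 6477 units per kilobase of its longest coding transcript, followed by Agpat2 at 1884, Agpat6 at 1224, Lpin1 at 991, Lpin2 at 576 and Dgat1 at 386. Gpam at 74.7, Lpin3 at 26.5 and Mogat1 at 11.4 units per kilobase followed far below. Dgat2 stood above Agpat2 in 12 of 12 livers and Dgat1 above Gpam in 12 of 12, so that these steps in the order were larger than the spread between livers. Agpat2 stood above Agpat6 in 6 of 6 saline livers but in 3 of 6 LNA29 livers, and Gpam above Lpin3 in 6 saline and 5 LNA29 livers. Among saline livers Agpat6 stood above Lpin1 in 4, Lpin1 above Lpin2 in 4, Lpin2 above Dgat1 in 5 and Lpin3 above Mogat1 in 5, and these neighbours were not separated in every liver.

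Among the members, the first acylation is made by Gpam, the mitochondrial glycerol-3-phosphate acyltransferase, and by Agpat6, an acyltransferase of the same step in the endoplasmic reticulum. Gpam values ran from 123 over a median of 284 to 1220 in saline livers, and from 56.6 over 369 to 663 in LNA29 livers. The groups overlapped over most of their range, and the highest and the lowest liver lay 21.6-fold apart, from 3 reads to 122. Between the groups Gpam had a log2 fold change of -0.39 (standard error 0.58, 95% interval -1.61 to 0.84, limma adjusted p = 0.927; exact permutation test, p = 0.604). Leaving out 1 liver moved the log2 fold change between -0.69, without saline replicate 47, and 0.058, without LNA29 replicate 48, which had 3 reads of Gpam. It was -0.026 without saline replicate 49 and, likewise, with values beyond 1.5 SD left out, and 0.034 with array weights.

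The spread of Gpam moved with a property of the libraries. For every liver, the deviation of each gene from its mean over the 12 livers was ranked against the length of the gene's longest coding transcript, over 12141 genes. Spearman's rho was 0.497 in saline replicate 49, 0.276 in saline replicate 43 and 0.257 in LNA29 replicate 44, and it was -0.295 in saline replicate 47 and -0.244 in LNA29 replicate 48. Gpam was at 1220, 609 and 663 in the first 3 of these livers, its 3 highest values, and at 123 and 56.6 in the last pair, its 2 lowest. Over the 12 livers, with the group means removed, Pearson's r between Gpam and this length trend was 0.89 and Spearman's rho 0.93. This is a description, since the livers share their reads between both measures, and 2.26% of all tested genes had an r at least as high. Genes with a transcript of 5000 to 7000 bases, among which Gpam belongs with 6172, had a median r of 0.48. Of the other members in this window, Lpin2 (5640 bases) had r = 0.61, Lpin1 (5581) r = 0.02 and Agpat6 (5518) r = -0.21. Outside it Lpin3 (3470) had r = 0.57, and the rest lay between -0.34 and 0.29. With the length trend as a covariate, a choice made after the data were seen, the log2 fold change of Gpam was -0.30 with a standard error of 0.30 (limma adjusted p = 0.743).

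**Figure D3:**
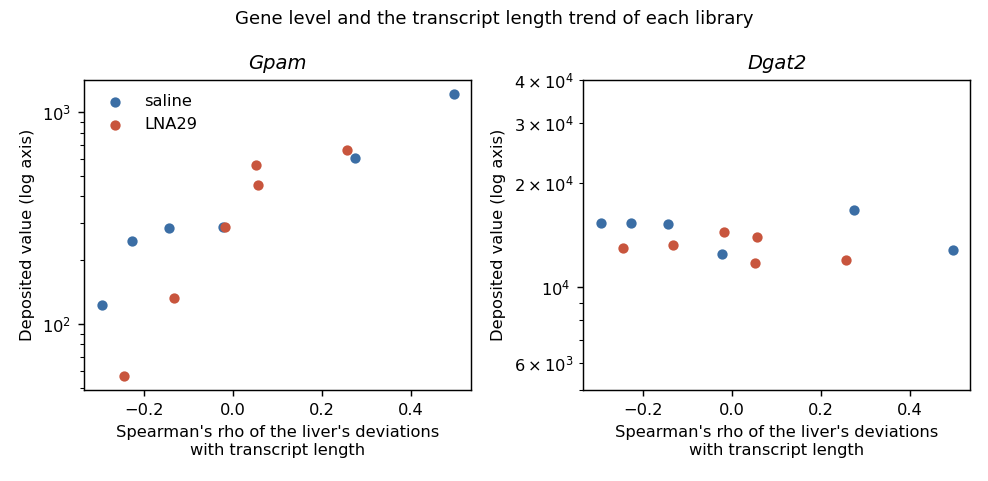
Deposited value (log axis) of Gpam and of Dgat2 in each liver against the Spearman correlation of that library's deviations with transcript length; points are livers, coloured by group. Gpam climbs from 56.6 and 123 at the left to 1220 at the right in both groups together, while Dgat2 stays within 1.42-fold.

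Agpat6 was among the steadiest members. Its values were 5391 to 7698 with a median of 7096 in saline livers and 5178 to 8019 with a median of 6392 in LNA29 livers. The groups overlapped almost completely. Agpat6 had a log2 fold change of -0.06 (standard error 0.14, 95% interval -0.35 to 0.23, limma adjusted p = 0.951; exact permutation test, p = 0.595), and with TMM scaling, edgeR or DESeq2 its sign turned to between 0.010 and 0.027. On the linear scale the interval runs from 0.784 to 1.17 times the saline level.

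Agpat2 adds the fatty acid that turns lysophosphatidic acid into phosphatidic acid, and loss of this gene causes lipodystrophy in people and mice. Its saline values were 2300, 2422, 2902, 2984, 3035 and 3192. The LNA29 livers were at 1340, 1377, 1854, 2375, 2589 and 3025. Hence 3 LNA29 livers lay below every saline liver, while LNA29 replicate 44 lay within the upper saline values. The means were 2806 ± 359 and 2093 ± 683 (SD, n = 6 each). The log2 fold change was -0.48 (standard error 0.20, 95% interval -0.89 to -0.07), with an unadjusted limma p of 0.0250 that did not hold after adjustment (adjusted p = 0.516). The exact permutation test gave p = 0.0606. The unadjusted limma p rose to 0.0533 without saline replicate 51, 0.0629 without LNA29 replicate 48, 0.0742 without LNA29 replicate 52 and 0.0521 with TMM scaling. It fell to 0.00544 without LNA29 replicate 44 (adjusted p = 0.294) and to 0.0177 with array weights (adjusted p = 0.313). The unadjusted p was 0.0667 with edgeR and 0.0705 with DESeq2. Over the alternatives the log2 fold change was -0.60 at its lowest and -0.36 at its highest.

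The lipins hydrolyse phosphatidic acid to diacylglycerol, and Lpin1 has a further role in the nucleus as a coactivator of fatty acid oxidation genes. Lpin1 is strongly induced by fasting, which all these mice had undergone. Its values ran from 2397 over a median of 4750 to 10716 in saline livers and from 2717 over 6141 to 15356 in LNA29 livers. Both groups spread several-fold, and the ranges overlapped almost throughout. Lpin1 had a log2 fold change of 0.33 (standard error 0.38, 95% interval -0.47 to 1.12, limma adjusted p = 0.893; exact permutation test, p = 0.511), and it ranged from 0.057, without LNA29 replicate 54, to 0.56, without LNA29 replicate 48, when 1 liver was left out.

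Lpin2, a lipin prominent in liver, had saline values of 1930, 2619, 2687, 3328, 4330 and 4588. The LNA29 livers were at 3151, 3151, 4411, 4659, 5375 and 6068. All 6 LNA29 livers lay above the saline median of 3008, and 3 of them above every saline liver. The means were 3247 ± 1041 and 4469 ± 1174 (SD, n = 6 each). The log2 fold change was 0.48 (standard error 0.22, 95% interval 0.02 to 0.94), with an unadjusted limma p of 0.0404 and an adjusted p of 0.606. The exact permutation test gave p = 0.0866. The unadjusted limma p exceeded 0.05 without any one of saline replicates 45, 47 and 51 and LNA29 replicates 44, 46, 50 and 54, reaching 0.112 without saline replicate 47. With no filter on low values it was 0.0738, and with TMM scaling 0.00997. The unadjusted p was 0.0185 with edgeR and 0.0133 with DESeq2. With the length trend as a covariate the log2 fold change was 0.50 with an unadjusted limma p of 0.00977 and an adjusted p of 0.201, the lowest adjusted p of Lpin2 under any alternative.

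Lpin3 was scarce, with 2 to 11 reads in a liver. Its values ran from 35.1 over a median of 94.0 to 143 in saline livers and from 37.7 over 51.8 to 138 in LNA29 livers. At this depth a difference was not detectable (log2 fold change -0.42, standard error 0.46, limma adjusted p = 0.883; exact permutation test, p = 0.357), and the log2 fold change ran from -0.67 to -0.24 over the alternatives. Together, and per kilobase, the 3 lipins had a log2 sum of 10.5 ± 0.60 in saline and 10.9 ± 0.61 in LNA29 livers (SD, n = 6 each; exact permutation test, p = 0.299). Lpin1 made up 45.9% to 73.0% of this sum in saline livers and 46.1% to 71.6% in LNA29 livers, and Lpin3 from 0.411% to 4.40% over all livers.

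Dgat1 and Dgat2 both add the last fatty acid but are unrelated in sequence. Dgat2 sits close to newly made fatty acids, and Dgat1 is known for re-esterifying fatty acids that enter from outside or from hydrolysis. Dgat1 values were 563, 651, 697, 770, 825 and 873 in saline livers. In LNA29 livers they were 683, 755, 786, 913, 986 and 1057, from 28 to 73 reads. The upper 3 LNA29 livers exceeded every saline liver. Dgat1 had a log2 fold change of 0.24 (standard error 0.17, 95% interval -0.12 to 0.60, limma adjusted p = 0.793; exact permutation test, p = 0.113).

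Dgat2, the most abundant member, was at 12460, 12810, 15273, 15324, 15368 and 16672 in saline livers. The LNA29 livers were at 11732, 11925, 12981, 13245, 13931 and 14446. In 4 saline livers the value exceeded every LNA29 liver, and 0 LNA29 livers reached the saline median of 15298, yet the saline pair at 12460 and 12810 lay inside the LNA29 range. The means were 14651 ± 1651 and 13044 ± 1075 (SD, n = 6 each). Dgat2 had a log2 fold change of -0.16 (standard error 0.12, 95% interval -0.42 to 0.10, limma adjusted p = 0.805; exact permutation test, p = 0.0801). The interval keeps the LNA29 level between 0.745 and 1.07 times that of saline before any adjustment for the number of genes. The log2 fold change was smaller under other scalings, at -0.073 with TMM factors, -0.094 with DESeq2 and -0.10 with edgeR.

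Because the 2 enzymes of this step had differences of opposite sign, their ratio within each liver was compared, a choice made after the values were seen. The scale is log2 of Dgat1 over Dgat2 on the deposited values plus 1, and not per length. It was -4.33 ± 0.30 in saline and -3.93 ± 0.25 in LNA29 livers (SD, n = 6 each), a difference of 0.40 (exact permutation test, p = 0.0260). All 6 LNA29 livers lay above the saline median and 3 above every saline liver. Among the 5 pairs of members that share a step this gave a Benjamini-Hochberg adjusted p of 0.0812, which did not pass. Without saline replicate 43, which had the lowest Dgat1 and the highest Dgat2 of its group, the difference was 0.29 and the exact permutation p 0.0606. The exact permutation p also exceeded 0.05 without LNA29 replicate 44 (0.0541), 48 (0.0584) or 54 (0.0541). Dgat1 was 3.37% to 6.01% of Dgat2 in saline livers and 5.44% to 8.14% in LNA29 livers.

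Of the other 4 pairs, Lpin2 over Lpin3 had a log2 ratio higher by 0.90 in LNA29 livers. The exact permutation test gave p = 0.0325, or 0.0812 adjusted over 5 pairs. Lpin3 had 2 reads in 4 of the 12 livers, saline replicate 47 and LNA29 replicates 46, 48 and 52. Without any one of saline replicates 43 and 45 and LNA29 replicates 46, 48, 52 and 54 the exact permutation p was 0.0541 to 0.0714. Lpin1 over Lpin3 differed by 0.75, Lpin1 over Lpin2 by -0.16 and Gpam over Agpat6 by -0.32, each within the spread of the livers (exact permutation test, p = 0.286, 0.701 and 0.697).

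**Figure D4:**
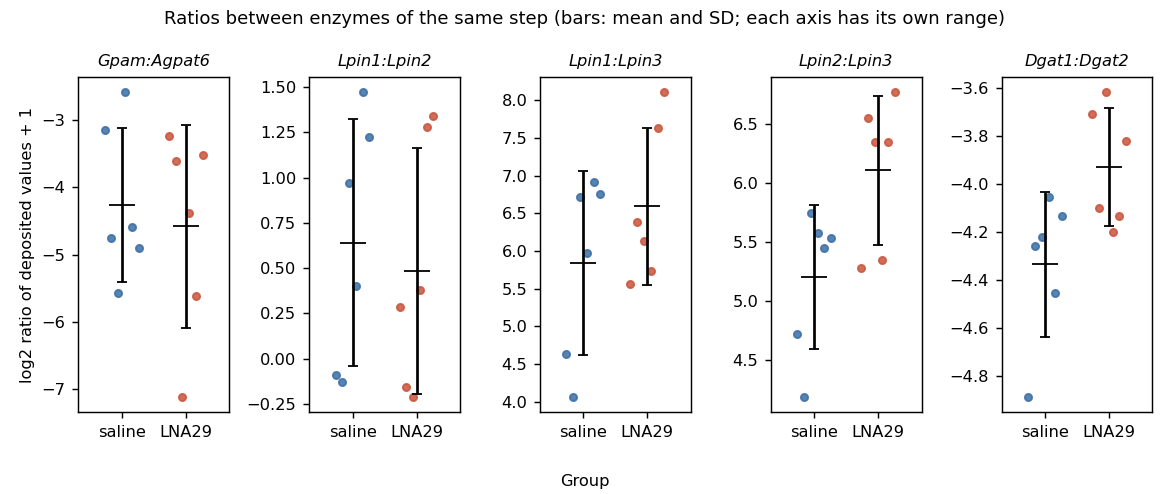
The log2 ratio of deposited values plus 1 for 5 pairs of genes of the same step in 6 saline and 6 LNA29 livers, with the mean and SD of each group; each panel has its own axis range. Dgat1 over Dgat2 averages -4.33 in saline and -3.93 in LNA29 livers, with 3 LNA29 livers above every saline liver.

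Mogat1, the monoacylglycerol acyltransferase of the bypass, was near the limit of these libraries. It had 0 to 3 reads in saline livers and 0 to 4 reads in LNA29 livers, and 2 saline and 3 LNA29 livers had none. A count of 0 allows up to 3 reads, so no fold change is given, and a difference was not detectable at this depth.

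The members did not vary as one set. With group means removed, the highest Pearson correlation over the 12 livers among the 36 pairs was that of Gpam and Lpin2 (r = 0.76), which both moved with the length trend above, and the lowest was that of Agpat6 and Dgat2 (r = -0.63). Lpin1 and Lpin2 had r = 0.57, and Dgat1 and Dgat2 had r = 0.03. These correlations are descriptions of libraries that share their scaling.

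For the 5 members with a mean of at least 1000, the genes whose pattern over the livers was most like theirs were looked up among 8983 genes, again with group means removed. Agpat2 was followed most closely by Gnas (r = 0.95), Ugt1a5 (0.92) and Mcoln1 (0.90), and Lpin1 by Las1l (0.96), Fkbp15 (0.92) and Ube2g2 (0.91). Lpin2 was followed by Ktn1 (r = 0.94), Aqr (0.93) and Manba (0.92). Agpat6 was followed by Ryk (r = 0.87), Rhob (0.87) and Diexf (0.86), and Dgat2 by Polr2g (0.92), Sip1 (0.88) and Mvd (0.88). Ugt1a5 shares exons with other Ugt1a genes, so that its value depends on how reads were divided. The highest of so many correlations over 12 livers is no test, and nothing is read from these names.

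Around the 9 enzymes, 66 further genes in 5 lists were tested, and 0 of them passed at an adjusted p under 0.05 (smallest adjusted p 0.270, limma). At an unadjusted limma p under 0.05, 2 were higher and 8 were lower in LNA29 livers, 10 of 66 in all beside 7.91% of all tested genes. Of the 66 genes 48 were lower, where 61.4% of all tested genes were. Among the lower ones, Acsl3 (0 to 11 reads), Gpat2 (0 to 7), Dgke (0 to 3) and Dgkq (0 to 25) lacked reads in at least 1 liver. Apart from genes named for few reads, those below are named because of that unadjusted p, and none was called after adjustment.

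Of the 8 tested genes that supply glycerol-3-phosphate and acyl-CoA, 5 were lower and 3 higher, with a median log2 fold change of -0.36. Gpd1, the glycerol-3-phosphate dehydrogenase that makes the backbone from a glycolytic intermediate, had means of 40145 ± 4261 in saline and 28712 ± 7392 in LNA29 livers (SD, n = 6 each). Its log2 fold change was -0.52 (standard error 0.18, limma adjusted p = 0.387; exact permutation test, p = 0.00649). Acsl5, an acyl-CoA synthetase, had a log2 fold change of -0.32 (limma adjusted p = 0.583; exact permutation test, p = 0.0368).

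Among 11 other acyltransferases and phosphatases of the pathway 8 were lower, and Lpgat1, a lysophospholipid acyltransferase, had a log2 fold change of -0.37 (limma adjusted p = 0.567). Of 17 genes of the branches to phospholipid 11 were lower, and Chka, a choline kinase, had a log2 fold change of 0.68 (limma adjusted p = 0.528), with LNA29 values that spread more (1398 ± 899) than saline values (781 ± 163; SD, n = 6 each). Of 14 genes listed for triglyceride and diglyceride breakdown 10 were lower, among them Dgke with at most 3 reads in any liver. The list also held the diacylglycerol kinases (Dgk genes), which are not lipases, so its count is not one of breakdown genes alone. Mgll, the monoacylglycerol lipase, had a log2 fold change of -0.41 (limma adjusted p = 0.485).

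The 16 genes named as regulators of these enzymes had a median log2 fold change of -0.25, with 14 lower and 2 higher. The study had already singled out some of these genes on the same livers, so the list is no independent evidence of a direction. The paper also reported lower Srebf1, Mlxipl and Srebf2 by RT-qPCR, in larger groups of mice than those sequenced. Srebf1, the sterol regulatory element binding factor that drives lipogenic genes, had means of 1342 ± 614 in saline and 659 ± 282 in LNA29 livers (SD, n = 6 each). Its log2 fold change was -0.99 (standard error 0.30, limma adjusted p = 0.270; exact permutation test, p = 0.0238). Mlxipl, the carbohydrate response factor ChREBP, was at -0.68 (limma adjusted p = 0.316), Cebpa at -0.40 (0.539) and Nr1h2 at -0.38 (0.617), while Insig2, which retains the sterol regulatory proteins in the endoplasmic reticulum, was at 0.72 (0.416). Of the enzymes themselves, Lpin2 (0.48), Lpin1 (0.33) and Dgat1 (0.24) had a log2 fold change above 0. Agpat2 (-0.48), Lpin3 (-0.42), Gpam (-0.39), Dgat2 (-0.16) and Agpat6 (-0.06) had one below 0, and 0 of the 9 members passed the test.

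**Figure D5:**
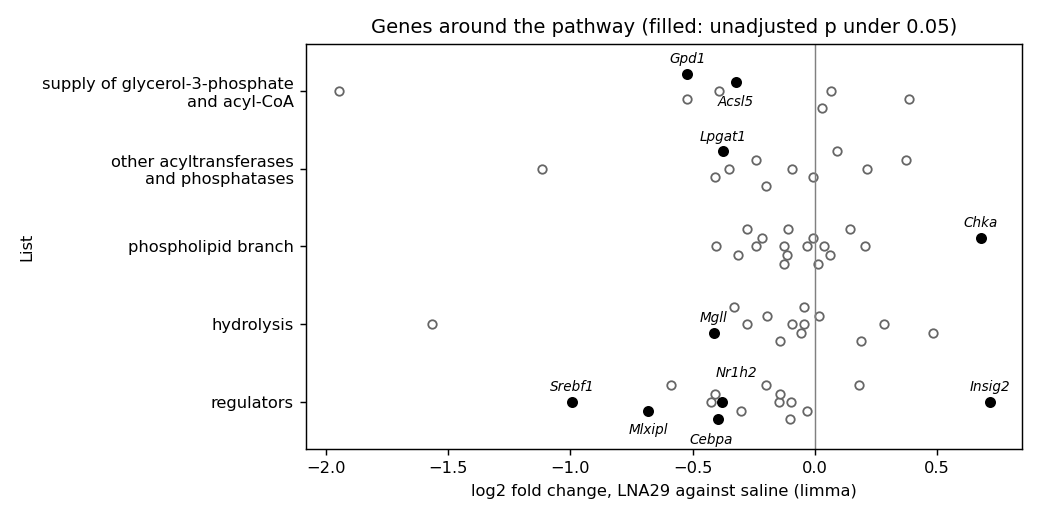
The log2 fold change of LNA29 against saline livers (limma) for 66 tested genes in 5 lists around the pathway; each point is a gene, placed by list, and filled points had an unadjusted p under 0.05. Filled points lie on the lower side for 8 genes and on the higher side for Chka and Insig2, and 0 of the 66 passed after adjustment.

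Whole liver also holds cells other than hepatocytes. Adipocyte markers matter here because fat cells express the same enzymes. Their summed value was 1734 to 3456 in saline and 2738 to 6925 in LNA29 livers, 6 of 7 tested markers had higher means in LNA29 livers, and 0 were called. Of the defining markers Lep was at 0 reads in every liver, Adipoq had reads in 2 livers and Plin1 in 1, with 8 reads. Retn had reads in 2 livers, at most 3, and Cfd in 3 livers, with up to 44 reads in a liver. Plin4, Cidec, Fabp4, Lpl and Adrb3 had reads in every liver. Whether single livers held fat tissue was not tested. The summed markers of stellate cells, macrophages, sinusoidal endothelium, bile duct and blood overlapped between the groups, with 0 genes called. Their part in the values above was not tested.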

How the data were processed

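The sources give polyadenylated RNA, single reads, MapSplice2 alignment and RSEM, and build mm9 per the labels; versions and annotation are not given in the sources used here. The authors deposited signal values, scaled so that the upper quartile of genes with reads was 1000 in each liver (998.35 in saline replicate 49), with genes without reads at 1. Group means, fold changes and p-values by the authors, and 3 unnamed columns, were not used. Of the values, 92.2% to 93.9% per liver fell on whole multiples of the worth of 1 read (tolerance 0.02), which gave the reads. The other values were rounded to the nearest read.

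Values plus a pseudocount of 1 were taken to log2 and fitted by limma 3.58.1 (trended variance). Genes averaging 10 or more entered (12486), and p was adjusted by Benjamini-Hochberg with 0.05 as the limit. On this scale a liver with 0 reads lies far below one with 1 read, so that fold changes of low genes can be overstated or understated. Acsl3, with 0 to 11 reads, had means of 92.4 in saline and 49.7 in LNA29 livers and a log2 fold change of -1.95. Single values were compared by a two-sided exact permutation test (924 divisions, smallest p 0.00216). The floor was 3 reads. The labels number the mice but give no litter, batch or pairing. Intervals cover the spread between these livers only.

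Alternatives were pseudocounts of 0.1 and 10, no filter or a mean of at least 100, a common median, TMM factors, array weights, a robust variance, values beyond 1.5 SD left out, count tests on recovered reads (DESeq2 1.42.0, edgeR 4.0.16), and each liver left out. Chosen after the data were seen were the length covariate, the ratios and a median without Mogat1. The members and lists were chosen with earlier results of these data known. Named were all members and the genes of each list with an unadjusted p under 0.05 (at most 5). Also named were list genes with few reads and the 3 genes most like each member with a mean of at least 1000. Scripts were tested on simulated data. Transcript lengths, 3′ UTRs and coordinates are from GENCODE M21 (GRCm38), matched by Entrez identifier for 19956 genes, and not from the build of the authors.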

Additional observations from a re-analysis of the deposited data

How the results depend on the processing

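The count of members at an adjusted p under 0.05 was 0 under all 24 alternatives, and the signs of Agpat2, Lpin1, Lpin2, Lpin3, Dgat1 and Dgat2 were kept. Gpam turned to 0.034 with array weights and ranged from -0.69 to 0.058 without 1 liver. Agpat6 turned to 0.027 with TMM factors, 0.010 with edgeR and 0.020 with DESeq2. The median of all tested genes, -0.093 in the main fit, was -0.0043, -0.016 and -0.0079 in these fits, higher by 0.089, 0.077 and 0.085. The cause of the turn was not tested. Members with an unadjusted p under 0.05 numbered 1 with no filter (Agpat2), and 1 with TMM factors, 1 with edgeR and 1 with DESeq2 (Lpin2 in each), and 0 to 2 without 1 liver. The 20 genes called over the whole table became 5 with no filter, 10 with a common median, 58 with array weights, 217 with values beyond 1.5 SD left out, 72 with DESeq2, 124 with the length covariate, and 1 to 29 without 1 liver; the cause was not tested. The median over 9 members was -0.063, -0.11 without Mogat1 and -0.18 to 0.058 without 1 liver. Without 1 liver, the log2 ratio differences ranged from -0.59 to 0.19 for Gpam over Agpat6 (0.012 without saline replicate 49), from -0.33 to 0.0097 for Lpin1 over Lpin2, from 0.39 to 0.96 for Lpin1 over Lpin3, from 0.70 to 1.07 for Lpin2 over Lpin3 and from 0.29 to 0.46 for Dgat1 over Dgat2. The filter at a mean of 100 left out Lpin3 and Mogat1. No paired analysis was possible because the groups share no replicate numbers. Depth limits Mogat1, Lpin3 and, in the livers with the fewest reads, Gpam.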
